A study of Mus musculus with 140 samples.

Results

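The intervals described here are the mouse silencer intervals that lie next to the centromeric ends of the autosomes. An interval was counted as a member where its midpoint lay between 3 Mb and 8 Mb of an autosome in the mm10 build. The rule used position only. It took 3497 of the 89596 intervals listed for mouse embryonic fibroblasts (MEFs) and 4441 of the 115165 intervals listed for mouse embryonic stem cells (mESCs), 7938 of 204761 in all. Members made up 3.98% of the autosomal MEF intervals and 3.93% of the autosomal mESC intervals, and the window held 3.93% of the sequenced bases of the autosomes.

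Silencers are stretches of DNA that reduce transcription, and the study searched for them with an assay named Ss-STARR-seq. Sheared pieces of the mouse genome are inserted in a reporter plasmid, the pool is delivered to cells, and reporter RNA is sequenced next to the plasmid DNA itself. The labels describe 140 libraries, of which 20 were input plasmid DNA (titled hPGK), 64 were reporter RNA of MEFs in 4 output sets and 56 were reporter RNA of mESCs in 3 output sets. MEFs were grown in DMEM with fetal bovine serum and mESCs in N2B27-2i/LIF medium. The labels give no genotype or strain for the cells, and 1 interval list was analysed for each cell type. Because a plasmid carries each fragment away from its chromosome, the assay reads what a fragment does in a reporter, not the chromatin at the place it came from. Each list gives the authors' fold for each interval, a linear ratio above 2 in every row whose direction and denominator are not stated. No value per library was used, so the spread between replicates and the depth behind an interval are unknown.

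Mouse autosomes are acrocentric, which means that the centromere sits at one end, the end from which bases are numbered. The centromere itself is built of minor satellite, and the blocks beside it of major satellite, the main DNA of pericentromeric heterochromatin. Such tandem arrays are hard to assemble, and the sequence that follows them often holds recent segmental duplications, in which a read can match several places equally well. In mm10 the first 3 Mb of all 19 autosomes is an assembly gap with no bases, and on 6 of them the gap runs 50 or 100 kb further, so the window begins at or just before the first sequenced base.

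The following sequences are the members with the 2 highest folds of each list and the highest pair found in both lists, taken among members of at most 300 bases. They are shown so that the letters behind these values can be seen. All were read from GRCm38.p6, the assembly behind mm10, on the plus strand, from the base after the listed start to the listed end, and capitals mark bases outside the soft-masked repeats of that assembly.
chr4:7407110-7407360, MEF fold 21.1: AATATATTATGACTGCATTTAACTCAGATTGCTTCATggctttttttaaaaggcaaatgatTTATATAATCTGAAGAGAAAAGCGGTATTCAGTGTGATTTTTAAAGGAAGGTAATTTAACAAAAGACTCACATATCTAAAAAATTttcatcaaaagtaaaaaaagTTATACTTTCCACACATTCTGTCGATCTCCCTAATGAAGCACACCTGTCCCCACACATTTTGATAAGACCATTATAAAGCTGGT
chr1:6366901-6367201, MEF fold 20.4: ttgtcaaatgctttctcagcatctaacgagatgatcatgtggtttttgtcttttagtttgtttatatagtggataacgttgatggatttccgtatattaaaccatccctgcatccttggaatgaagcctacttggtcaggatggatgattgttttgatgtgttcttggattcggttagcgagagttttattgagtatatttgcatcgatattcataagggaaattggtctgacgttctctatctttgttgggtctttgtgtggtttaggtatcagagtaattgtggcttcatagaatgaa
chr15:5275701-5275801, mESC fold 32.5: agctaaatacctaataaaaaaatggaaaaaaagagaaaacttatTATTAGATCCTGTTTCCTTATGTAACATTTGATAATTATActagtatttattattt
chr6:3696569-3696669, mESC fold 20.3: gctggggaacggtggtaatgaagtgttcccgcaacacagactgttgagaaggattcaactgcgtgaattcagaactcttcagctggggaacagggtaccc
chr6:3801301-3801451, MEF fold 9.26 and mESC fold 9.21: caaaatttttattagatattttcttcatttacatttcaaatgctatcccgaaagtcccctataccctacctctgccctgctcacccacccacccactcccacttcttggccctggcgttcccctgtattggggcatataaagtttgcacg

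The chromosome 4 interval was intergenic, had a GC content of 30.8% and lay 416 kb from Tox, a transcription factor gene of T cell development. An mESC interval with a fold of 4.67 overlapped it. The chromosome 1 interval lay in an intron of Alkal1, which codes for a ligand of ALK receptors, and was soft-masked along its whole length. The 50 bp word at its middle occurred 27 times in the genome, and it overlapped an mESC interval with a fold of 7.39. The chromosome 15 interval, the highest fold among mESC members, was an AT-rich stretch with a GC content of 20% and lay 31.6 kb from Ptger4, a prostaglandin E receptor gene. It overlapped no MEF interval. The chromosome 6 interval with the fold of 20.3 lay in an intron of Calcr, the calcitonin receptor gene, was fully soft-masked and had a middle word with 134 copies. It overlapped no MEF interval either. The last sequence has identical ends in both cell types, lies 36.7 kb from Calcr, and had the highest lower fold of the 2 lists among pairs of at most 300 bases. Among pairs of any length that place belonged to chr12:6969707-6970055, an interval of 348 bases with folds of 20.2 in MEFs and 10.8 in mESCs, which lay 1008 kb from Apob, the apolipoprotein B gene. The third highest mESC fold, 15.4, belonged to chr19:7754728-7754877, which lay 26.2 kb from Slc22a26, an organic anion transporter family gene, and overlapped no MEF interval.

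Summed over the 19 autosomes, members were about as dense as intervals elsewhere. There were 37.1 MEF members per Mb of sequenced bases in the window and 36.6 MEF intervals per Mb in the rest of the autosomes, a ratio of 1.01 with a 95% exact binomial interval of 0.979 to 1.05. For mESCs the values were 47.1 per Mb in both, a ratio of 1.00 with an interval of 0.971 to 1.03. These intervals cover counting error only. The opposite ends of the autosomes, the last 5 Mb of sequence, held fewer intervals, 32.9 per Mb in MEFs and 42.1 per Mb in mESCs.

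The sum hid a wide spread among autosomes. Chromosome 14 held 13 MEF members, 2.60 per Mb against 36.3 per Mb in its remainder, and 18 mESC members, 3.60 per Mb against 45.4 per Mb. The other 18 autosomes held 31.6 to 50.2 MEF members per Mb and 37.8 to 59.4 mESC members per Mb. Without chromosome 14 the window had 39.0 MEF and 49.6 mESC members per Mb, and the ratios to the rest of the autosomes were 1.07 and 1.05. The window was denser than the remainder of its own autosome on 12 of 19 autosomes and less dense on 7, and these were the same autosomes in both lists. Over the 19 autosomes the standard deviation of the window's density was 9.74 per Mb in MEFs and 12.0 per Mb in mESCs. It was 5.14 and 5.92 per Mb without chromosome 14, against 2.26 and 2.49 per Mb for the remainders, which are much longer stretches.

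**Figure D1:**
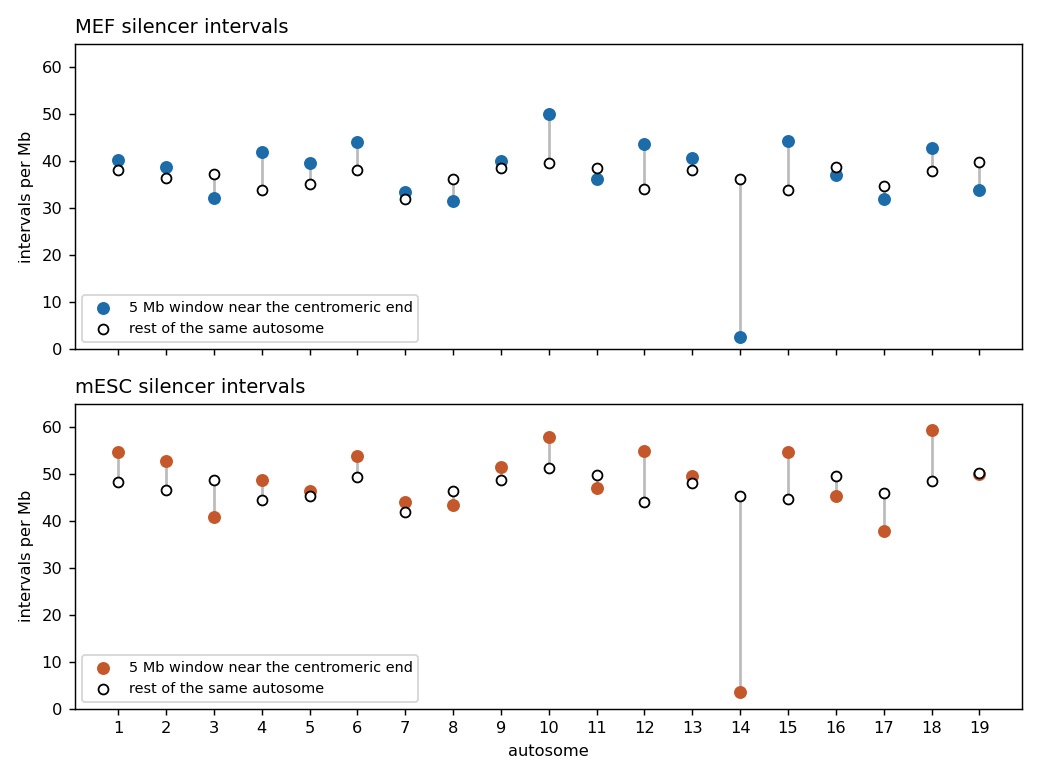
Intervals per Mb of sequenced bases (vertical axis) for each autosome (horizontal axis), MEF list above and mESC list below; filled points are the 5 Mb window near the centromeric end and open points the rest of the same autosome, with no error bars since each is 1 count. Chromosome 14 lies at 2.60 and 3.60 per Mb, apart from all other autosomes.

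Chromosomes 10, 12, 15 and 18 had some of the densest windows. Chromosome 12 held 43.8 MEF members per Mb against 34.1 in its remainder, and 54.8 mESC members per Mb against 44.1. Its window was the densest of its 23 windows of 5 Mb in MEFs and ranked 2 of 23 in mESCs. Chromosome 15 held 44.2 MEF members per Mb against 34.0 and 54.7 mESC members per Mb against 44.7, which ranked 3 and 2 of 20 windows. Chromosome 10 had the highest MEF density, 50.2 per Mb, and ranked 2 of 25 in MEFs and 4 of 25 in mESCs. Chromosome 18 had the highest mESC density, 59.4 per Mb, and ranked 2 of 17 there and 3 of 17 in MEFs. At the other side chromosome 17 had 31.9 MEF and 37.8 mESC members per Mb, and its mESC window ranked 17 of 18. Chromosome 3 had 32.2 and 40.8 per Mb and ranked 27 and 28 of 31. No count per autosome was tested, because the design tested bins of 1 Mb.

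The 95 bins of 1 Mb in the window were then set against the mean rate of their own autosome, with a two-sided exact negative binomial test, 1 dispersion for all autosomal bins and Benjamini-Hochberg adjustment over all 2403 bins. Among the bins of the window, 4 had fewer MEF intervals than that mean at an adjusted p below 0.05, and over all autosomal bins the percentage called lower was 1.04. The mESC list gave 5 lower bins, against 1.17 percent of all bins. No bin of the window was called higher in either list. Bins called higher were 0.0832 percent of all bins in the MEF list and 0.0832 percent in the mESC list. At an unadjusted p below 0.05 the test put 3 of the 95 window bins higher in MEFs and 0 in mESCs. Over all 2403 bins it put 41 higher in MEFs and 48 in mESCs at that limit. The shares of window bins called lower were 4.21% in MEFs and 5.26% in mESCs.

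The lower bins were those of chromosome 14 plus 1 bin of chromosome 7. From 3 Mb to 7 Mb of chromosome 14 the 4 bins held 0, 1, 1 and 0 MEF intervals, where the mean of the chromosome predicts 34.9 each, and the adjusted p of the negative binomial test was 9.24e-06 for the bins with 0 and 2.76e-05 for those with 1. The same bins held 1, 0, 1 and 0 mESC intervals against 43.7, with adjusted p of 3.21e-06 and 6.39e-07. The bin from 7 Mb to 8 Mb of chromosome 14 held 11 MEF and 16 mESC intervals and was not called (adjusted p 0.24 and 0.34). The bin from 7 Mb to 8 Mb of chromosome 7 held 10 mESC intervals against 42.1 (adjusted p 0.042, a call lost when only folds at or above the list median were counted) and 12 MEF intervals against 32.03 (adjusted p 0.47). Whether the 2 lists differed in that bin was tested only through the share of mESC intervals, which was 45.5% there (adjusted p 1).

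**Figure D2:**
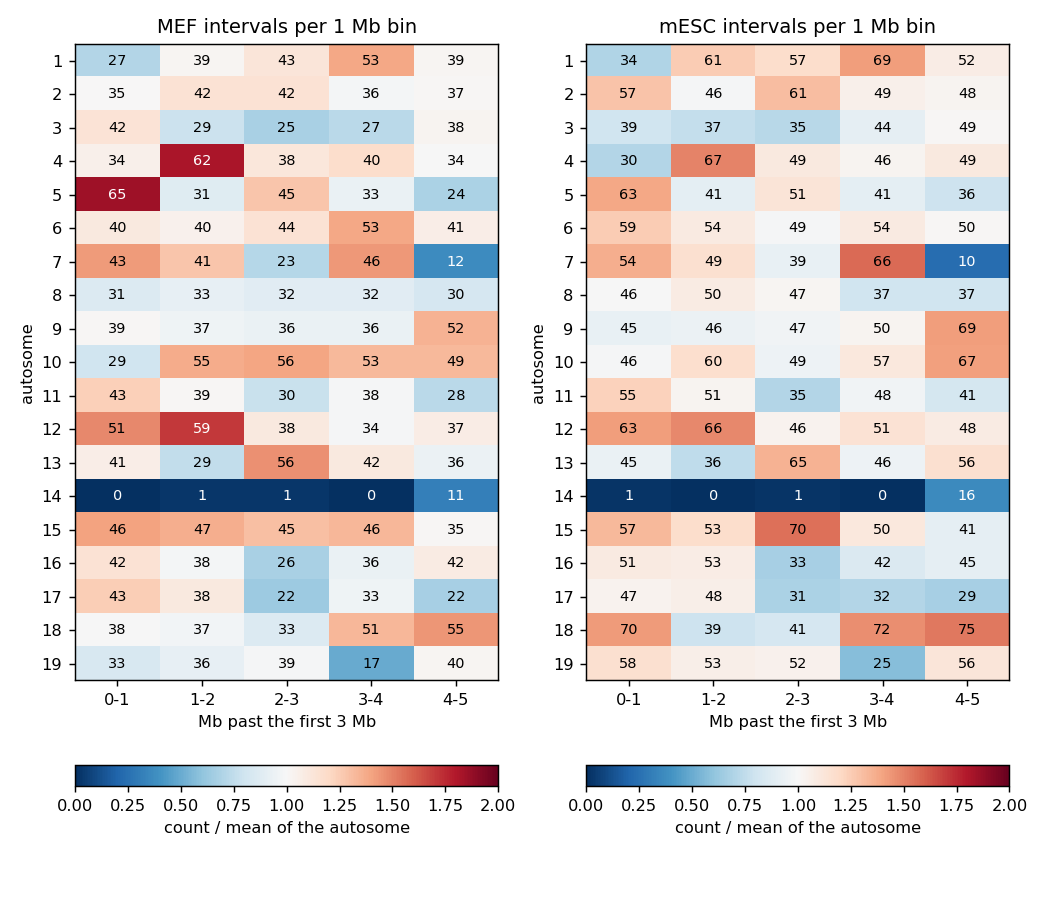
Number of intervals in each 1 Mb bin (printed in the cells) by autosome (rows) and by Mb past the first 3 Mb (columns), for MEFs on the left and mESCs on the right; the colour is the count divided by the mean of the autosome, from 0 to 2. The row of chromosome 14 and the last bin of chromosome 7 are the darkest blue cells, and the fullest cells hold 65 MEF and 75 mESC intervals.

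Among the fullest bins, the first Mb of chromosome 5 held 65 MEF intervals against 35.2 (adjusted p 0.49) and the bin from 4 Mb to 5 Mb of chromosome 4 held 62 against 34.1 (adjusted p 0.56). In mESCs the fullest bin was 7 Mb to 8 Mb of chromosome 18, with 75 intervals against 49.2 (adjusted p 1). None of these passed the test. Across the window's bins the lowest, median and highest densities were 0, 38 and 65 per Mb in MEFs and 0, 49 and 75 per Mb in mESCs. The other 2308 autosomal bins ranged from 0 to 95.5 with a median of 37 in MEFs and from 0 to 126 with a median of 46.5 in mESCs, so most window bins sat well inside the range of bins elsewhere. MEF and mESC densities went together across the 95 bins (Spearman rho 0.80, Pearson r 0.89) and across the 90 bins off chromosome 14 (rho 0.77, r 0.80). The value outside the window was rho 0.78 over 2308 bins. These coefficients are descriptions across bins that share one plasmid pool and one genome sequence.

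The uniqueness of the sequence was measured with 50 bp words sampled every 2 kb and counted over the whole genome on both strands. In the window 81.5% of words occurred once, against 89.7% in the rest of the autosomes and 90.9% in the last 5 Mb. On 17 of 19 autosomes the window had a lower share of unique words than the remainder. Chromosome 14 had 14.1%, chromosome 7 had 66.0%, and the others had 80.8% to 92.2%. The 4 nearly empty bins of chromosome 14 had 3.60%, 10.0%, 8.20% and 14.0% unique words, its last bin 34.6%, and the mESC-poor bin of chromosome 7 had 26.8%. The share of unique words thus moved with the low counts, and its part in them was not tested.

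Bins elsewhere with as few unique words were also poor in intervals. Over the autosomes 15 bins outside the window had under 20% unique words, and they held 27 MEF intervals, 1.91 per Mb, and 46 mESC intervals, 3.25 per Mb. The 4 such bins of the window held 2 and 2, 0.50 per Mb in each list. Bins with 20% to 60% unique words held 24.8 MEF and 27.6 mESC intervals per Mb in the window and 19.2 and 23.8 per Mb outside it. From 80% to 90%, where 52 of the window's bins fell, the densities were 39.98 and 51.8 per Mb in the window and 36.1 and 47.2 per Mb outside. At 90% and above, with 27 window bins, they were 39.2 and 47.8 per Mb in the window and 37.8 and 48.1 per Mb outside. Over the 90 window bins off chromosome 14 the relation of density to unique words was weak (Spearman rho 0.04 and Pearson r 0.21 in MEFs, and -0.04 and 0.25 in mESCs, as descriptions across bins). When expected counts were set per uniquely placed base, 0 window bins were called lower in either list. In that form the bins of chromosome 14 from 4 Mb to 5 Mb and from 6 Mb to 7 Mb expected only 4.12 and 5.77 MEF intervals. The bins from 3 Mb to 4 Mb and from 5 Mb to 6 Mb were left out for holding under 0.1 Mb of unique sequence. Even a count of 0 could not pass in the bins kept. From 6 Mb to 7 Mb it gave adjusted p of 0.56 in MEFs and 0.42 in mESCs (negative binomial test). The lack of calls therefore tells nothing about these 4 bins. In the same form the bin from 7 Mb to 8 Mb of chromosome 7 held 12 MEF intervals against 10.2 expected. It held 10 mESC intervals against 13.5 expected.

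**Figure D3:**
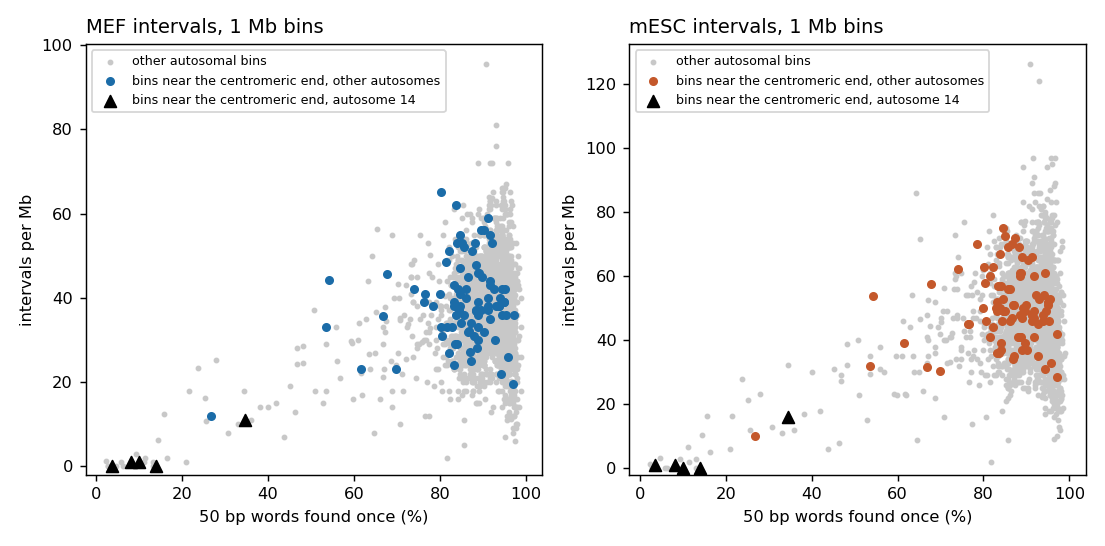
Intervals per Mb (vertical axis) against the percentage of 50 bp words found once in the genome (horizontal axis), one point per 1 Mb autosomal bin, MEF list on the left and mESC list on the right; coloured points are window bins, triangles those of chromosome 14 and grey points all other autosomal bins. Bins with under 20% unique words lie near 0 inside and outside the window.

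The 4 members that were listed in the nearly empty bins of chromosome 14 are shown because they are all that both lists hold over those 4 Mb. Capitals again mark bases outside soft-masked repeats.
chr14:4287702-4287952, MEF fold 4.54: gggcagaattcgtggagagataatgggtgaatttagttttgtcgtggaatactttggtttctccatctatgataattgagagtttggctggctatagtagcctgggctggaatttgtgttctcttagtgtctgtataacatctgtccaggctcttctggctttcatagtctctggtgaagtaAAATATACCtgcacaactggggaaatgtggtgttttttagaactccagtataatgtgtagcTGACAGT
chr14:5947506-5947606, MEF fold 2.03: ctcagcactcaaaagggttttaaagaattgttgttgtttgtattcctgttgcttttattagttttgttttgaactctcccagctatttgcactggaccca
chr14:3294687-3294836, mESC fold 2.14: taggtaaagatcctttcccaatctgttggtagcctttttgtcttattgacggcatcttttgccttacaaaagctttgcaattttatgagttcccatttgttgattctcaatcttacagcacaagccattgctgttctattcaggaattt
chr14:5937588-5937788, mESC fold 2.06: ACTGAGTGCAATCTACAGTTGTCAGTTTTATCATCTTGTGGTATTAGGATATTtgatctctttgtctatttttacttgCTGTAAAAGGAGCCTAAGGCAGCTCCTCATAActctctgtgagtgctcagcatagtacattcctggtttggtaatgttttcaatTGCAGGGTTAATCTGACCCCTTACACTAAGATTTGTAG

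The first of these was 93.6% soft-masked, and its middle word occurred 2307 times in the genome. The second was fully soft-masked and lay in an intron of Gm3248, a gene model, but its middle word occurred once. The mESC interval with the fold of 2.14 was fully soft-masked, with a middle word of 3 copies, and the other lay 1.54 kb from Gm3248 with a middle word of 6 copies. None of the 4 overlapped the other list. In the last bin of this window members lay near the gene models Gm3755, Gm10128 and Gm26661 and in introns of Dnase1l3, a secreted DNase, among other places. The 4 MEF members of chromosome 14 that were also in the mESC list all had Gm26661 as the nearest protein-coding gene.

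In the 5 successive Mb of the window the MEF densities were 39.1, 38.6, 35.5, 37.4 and 35.1 per Mb and the mESC densities 49.8, 47.9, 45.2, 46.6 and 46.3 per Mb. Without chromosome 14 they were 41.3, 40.7, 37.4, 39.5 and 36.4 in MEFs and 52.6, 50.6, 47.6, 49.2 and 48.0 in mESCs. The standard deviation over these 18 autosomes in the first Mb was 8.77 and 10.9 per Mb, and the differences between steps were not tested. The following 15 Mb ranged from 32.7 to 39.2 MEF intervals per Mb and from 42.1 to 51.0 mESC intervals per Mb without chromosome 14. Unique words were fewest in the first Mb, 79.2% without chromosome 14, against 82.2% to 89.1% in the next 4.

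**Figure D4:**
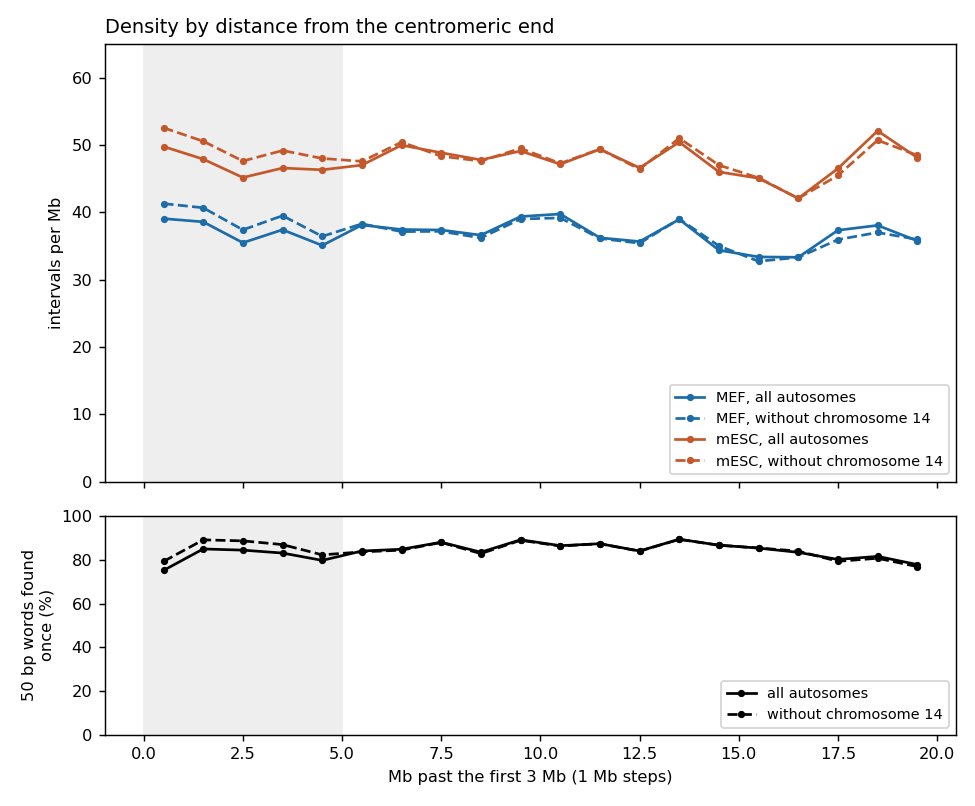
Upper panel, intervals per Mb (vertical axis) in 1 Mb steps counted past the first 3 Mb (horizontal axis), blue for MEFs and orange for mESCs, solid for all autosomes and dashed without chromosome 14; lower panel, the percentage of 50 bp words found once, over the same steps. The grey band is the 5 Mb window, where the dashed lines run from 36.4 to 41.3 in MEFs and from 47.6 to 52.6 in mESCs.

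Right beside the gap members were sparse. Counted from the first sequenced base of each of the 19 autosomes, the first 50 kb held 11 MEF members, 11.6 per Mb, and 21 mESC members, 22.2 per Mb, and 42.98% of its words were unique. The first 100 kb held 35 and 53 members, 18.5 and 27.9 per Mb, and the first 500 kb held 334 and 422, 35.4 and 44.7 per Mb, where 68.5% of words were unique. The share of unique words moved with these counts, and its part in them was not tested. The member nearest to a gap was a MEF interval, chr1:3000963-3001313 with a fold of 2.89, which lay 205 kb from Xkr4. The nearest mESC member was chr12:3001214-3001314 with a fold of 2.24, whose nearest protein-coding gene was Rab10, a vesicle transport GTPase gene, at 246 kb. On chromosome 14 the first MEF member began 1288 kb past the first sequenced base and the first mESC member 295 kb past it. On the other autosomes the first member of either list began 0.963 kb to 156 kb past it.

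The 1 span of major satellite found at the edge of the assembly held no interval of either list. Stretches of 2 kb in which at least 70% of bases matched the base lying one period of the mouse major satellite further on were found on 1 autosome. They were 12 stretches of chromosome 9 between 3000001 and 3038000. No MEF and no mESC interval touched this span of 38 kb, and the first members of chromosome 9 began 79.7 kb past the gap in both lists. At the window's mean of 37.1 MEF and 47.1 mESC members per Mb, a span this short would hold few intervals. Its lack of intervals therefore tells little, and no other satellite period was searched. The unit most like the one after it (97.9% identity) is shown so that the repeat can be recognised, with capitals outside soft-masked repeats.
chr9:3027538-3027771, tandem repeat unit: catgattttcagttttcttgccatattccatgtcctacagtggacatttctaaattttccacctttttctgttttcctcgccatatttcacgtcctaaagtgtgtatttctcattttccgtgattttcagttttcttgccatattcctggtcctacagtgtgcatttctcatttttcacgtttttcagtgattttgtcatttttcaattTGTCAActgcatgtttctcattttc

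The binding motif of CENP-B, the protein that binds minor satellite, was searched as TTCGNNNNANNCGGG on both strands. It occurred 21 times in the window, 0.22 per Mb, and 534 times in the rest of the autosomes, 0.23 per Mb. In windows of 300 bp around grid points it was found in 0.0042% in the window and 0.0063% elsewhere. It was found in 1 MEF member (0.029%) and in 1 mESC member (0.023%), which overlap each other, and in 2 intervals of each list outside the window. In the same 300 bp around interval midpoints the counts were 1 member and 3 other intervals in each list. The members are chr15:3280363-3280813 with a MEF fold of 2.88 and chr15:3280453-3280699 with an mESC fold of 2.93. Their midpoints lay in a UTR of Ccdc152, a coiled-coil protein gene, and the motif and its flanks are shown with the motif in capitals at chr15:3280638-3280652.
chr15 motif occurrence: accgtcTTCGCATGAGGCGGGtatctt

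The folds of members were close to those of other intervals. The median fold was 2.37 in MEF members and 2.36 in the rest, and 2.42 and 2.41 in mESCs. A fold above 4 was listed for 6.32% of MEF members (221 intervals) against 5.69% of the rest, and for 8.04% of mESC members (357) against 7.77%. The median length was 200 bp in each list, inside and outside the window. The longest members were chr19:4168401-4169451 in MEFs, 1050 bases at the promoter of Carns1, a carnosine synthase gene, and chr18:7263301-7264751 in mESCs, 1450 bases in an intron of Armc4, a gene of motile cilia. Members covered 0.81% of the window's bases in MEFs and 1.10% in mESCs, against 0.80% and 1.06% of the rest. Just inside the 8 Mb limit lay chr12:7996770-7997170 (MEF fold 2.29, in an intron of Apob) and chr16:7998101-7998301 (mESC fold 2.01, 411 kb from Tmem114). Just outside lay chr13:8000165-8000365 (MEF fold 2.23, 203 kb from Adarb2) and chr3:8000748-8000798 (mESC fold 2.61, 387 kb from Il7).

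Members were found in the other cell type as often as intervals elsewhere. Of the MEF members 1649, or 47.2% (exact binomial 95% limits 45.5% and 48.8%), shared at least 1 bp with an mESC interval, against 47.2% in the rest. Of the mESC members 1642, or 37.0% (35.6% to 38.4%), overlapped a MEF interval, against 36.6%. On chromosome 14 the overlap was 4 of 13 MEF members (30.8%) and 4 of 18 mESC members (22.2%). Among the 1649 MEF members with a partner the folds of both cell types went together (Spearman rho 0.51, a description across intervals). The fold was higher in MEFs in 742 pairs and in mESCs in 907, both lists having their own scale. It exceeded 4 in both for 73 pairs, in MEFs alone for 59 and in mESCs alone for 85. In 140 pairs both ends were identical.

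**Figure D5:**
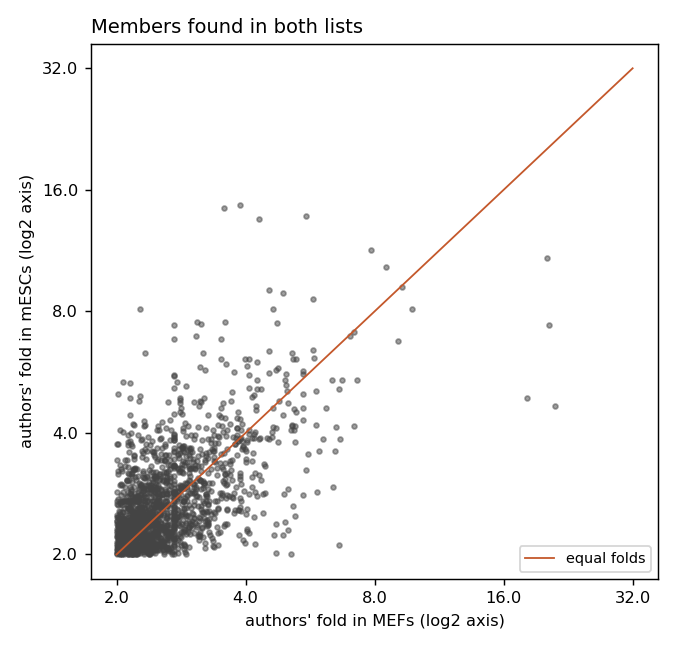
Authors' fold in mESCs (vertical axis) against the authors' fold in MEFs (horizontal axis), both on log2 axes, one point for each of the 1649 MEF members that overlap an mESC interval; the line marks equal folds. Points crowd between 2 and 4 in both cell types, and 73 exceed 4 in both.

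The balance of both cell types was also like that elsewhere. mESC intervals were 4441 of the 7938 members, and 56.2% of autosomal intervals. By autosome this share ran from 53.6% on chromosome 10 to 59.7% on chromosome 19. In the 91 window bins with at least 10 intervals, a two-sided exact binomial test of the mESC share with Benjamini-Hochberg adjustment over 2391 autosomal bins called 0 bins, as it did over all autosomal bins (0 percent toward MEFs and 0 percent toward mESCs). At an unadjusted p below 0.05 it gave 1 window bin, from 5 Mb to 6 Mb of chromosome 10, with 56 MEF and 49 mESC intervals. Over all 2391 bins it gave 18 toward MEFs and 25 toward mESCs at that limit. Places listed in both cell types enter both counts, so the draws are not independent and 0 calls do not show an equal balance. With only the intervals that overlap no interval of the other list, the test also called 0 bins. It then gave 3 of the 91 window bins at an unadjusted p below 0.05, with no such count over all bins to set beside it.

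Members held more repeats than intervals elsewhere, as did the sequence around them. Soft-masked bases made up 42.95% of the bases of MEF members and 38.4% in the rest, and 46.4% and 41.2% in mESCs. The window's sequence was 39.8% soft-masked and the rest of the autosomes 33.2%. Fully masked intervals were 12.3% of MEF members against 9.14%, and 12.9% of mESC members against 9.93%. The middle word occurred more than once in 11.0% of MEF members (10.0% to 12.1%) and 8.00% of the rest, and in 13.5% of mESC members (12.5% to 14.5%) and 9.14% of the rest. In the sequence itself unique words were 81.5% of the window and 89.7% of the rest. Repeated words were thus less frequent at member midpoints than in the whole window's sequence. Chromosome 14, with 14.1% unique words, lowers the window's share but held only 13 MEF and 18 mESC members. Without it repeated middle words were 11.0% of MEF and 13.4% of mESC members. Unique words were then 79.2% to 89.1% in the 5 successive Mb, so the gap was smaller. The window's words below also include chromosome 14. Words with over 100 copies made up 4.06% of MEF and 4.23% of mESC members and 5.32% of the window's words. Words with 2 to 10 copies were 4.23% of MEF and 5.29% of mESC members and 8.32% of the window's words, and in the rest of the autosomes they were 3.10% and 3.47% of intervals and 3.84% of words. The share of repeated words in the sequence thus moved with that in members, and its part in the difference between members and other intervals was not tested.

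Soft-masked midpoints were more frequent among members listed in both cell types. A soft-masked midpoint was found in 49.1% of the MEF members that overlapped an mESC interval and 38.8% of those that did not, and in 49.0% and 44.7% of mESC members. The rest of the autosomes gave 43.2% and 34.6% in MEFs and 43.4% and 39.9% in mESCs. MEF members with a middle word of over 100 copies overlapped the other list in 57.7% of cases, those with 1 copy in 45.7%. In mESCs these shares were 42.6% and 36.8%, and it was 34.7% for members with 11 to 100 copies. The share with a fold above 4 was 11.3% in the first class and 6.01% in the second in MEFs, and 14.4% and 7.68% in mESCs. Outside the window the same classes gave 12.0% and 5.35% in MEFs and 16.2% and 7.19% in mESCs.

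Base composition differed little. The mean GC content was 40.2% in MEF members and 40.1% in the rest, and 40.4% and 40.2% in mESCs, below the 41.7% of the window's sequence and the 41.9% of the rest. The ratio of observed to expected CpG was 0.19 in members and in the rest of both lists. At least 1 CpG was present in 63.2% of MEF members and 64.8% of mESC members. Another interval of its own list was at most 5 kb away for 38% of MEF members and 45.4% of mESC members, against 38.6% and 44.9% elsewhere.

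Most members lay outside exons. Of the MEF members 54.0% were intergenic, 40.9% intronic and 3.09% within 1 kb of a transcription start site (108 intervals), and 13 lay in coding exons. Of the mESC members 54.9% were intergenic, 39.8% intronic and 3.54% at promoters (157 intervals), and 16 lay in coding exons. The window's own sequence was 54.7% intergenic, 37.5% intronic, 4.71% promoter and 1.31% coding exon. Coding exons were thus the class least filled by members, 0.37% of MEF and 0.36% of mESC members. The ratio of members to sequence was 0.29 and 0.28 there, against 0.46 and 0.45 outside the window. The exact binomial limits were 0.20% to 0.63% of MEF members and 0.21% to 0.58% of mESC members. Both include the share outside the window, 0.54% in each list. They bear on the share and not on the ratio, since coding exons were 1.31% of the window's sequence and 1.19% of the rest. The window's sequence also includes chromosome 14, where 98 of 103 protein-coding genes had no member in or near them. The difference between window and rest was not tested. Promoters had ratios of 0.66 and 0.75 in the window and 0.77 and 0.79 outside it. UTRs held 33 MEF and 46 mESC members.

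The window holds the starts of 904 protein-coding genes. A gene's territory was taken as its body with 10 kb on each side, inside the window, and neighbouring territories can share an interval. Some MEF member lay in the territories of 548 genes and some mESC member in those of 611, and 236 genes had none of either list. The median territory held 29 MEF and 35.9 mESC members per Mb. Of the 236 empty genes 98 were on chromosome 14, where 103 protein-coding genes start, and 52 on chromosome 19, where 185 start. Gene models named Gm and a number, 136 in all, were empty in 112 cases, 95 of them on chromosome 14. Vomeronasal receptor genes, which code for pheromone receptors and lie in duplicated clusters, were empty in 14 of 23 cases, 12 of them on chromosome 7. From 7 Mb to 8 Mb of chromosome 7, the bin called lower in mESCs, 11 of 15 genes were empty, among them all 8 vomeronasal receptor genes. Other clustered families were mostly not empty, with 3 of 24 zinc finger protein genes, 3 of 10 olfactory receptor genes and 0 of 3 Nlrp genes at 0. Of the remaining 708 genes 14.7% were empty. These families were chosen after the empty genes had been seen. The largest empty territories were those of the chromosome 14 gene models Gm3383 (220 kb), Gm3005 (186 kb) and Gm3002 (176 kb).

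Long genes held the most members. Rbfox1, a neuronal splicing regulator on chromosome 16, had 48 MEF and 60 mESC members in 1546 kb of territory, and Celf2, an RNA-binding protein gene on chromosome 2, had 43 and 50 in 990 kb. Fam110b had 26 and 34, Syne1, which codes for the nuclear envelope protein nesprin-1, had 31 and 28, and Cdk14, a cyclin-dependent kinase gene, had 20 and 30. Per Mb these were 31.0 and 38.8 for Rbfox1, 43.4 and 50.5 for Celf2 and 53.7 and 70.2 for Fam110b. The list of 14 long genes with roles in neurons had a median of 33.5 MEF and 43.9 mESC members per Mb, near that of all genes, and all 14 held members of both lists.

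The genes with the most members per Mb, among those with at least 5, had small territories. Mmp1b, a collagenase gene of the Mmp cluster on chromosome 9, had 7 MEF and 10 mESC members in 39.8 kb. Gm26661 on chromosome 14 had 3 and 6 in 20.5 kb. Rps9, a ribosomal protein gene, had 4 and 5, Mefv, which codes for pyrin, the protein mutated in familial Mediterranean fever, had 4 and 7, and Arl2, a small GTPase gene, had 4 and 5. Counts this small carry a wide counting error.

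Genes of the LIF and oncostatin M system lie in the window on chromosomes 11 and 15. LIF is the cytokine that holds mESCs in self-renewal, and the mESC medium contained it. Lifr, its receptor, had 6 MEF and 5 mESC members, Osmr, the oncostatin M receptor, had 4 and 5, Lif had 1 and 2, and Osm had 0 and 1. The 4 genes had medians of 37.9 MEF and 48.9 mESC members per Mb. Highest folds were 2.62 (MEF) and 4.00 (mESC) at Lifr, and 2.84 and 3.59 at Osmr.

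Of 13 chromatin regulators in the window 9 had more mESC than MEF members, 0 had fewer and 4 had equal numbers, against 360, 172 and 372 of the 904 genes. Those 372 genes include the 236 with no member of either list. The list's median was 51.0 MEF and 70.5 mESC members per Mb. Ncoa1, a nuclear receptor coactivator, had 16 and 20, Asxl2, a Polycomb-associated protein, had 11 and 14, Kdm2a, a histone demethylase, had 9 and 14, and Arid1b, a BAF complex subunit, had 10 and 10. Highest folds were 3.18 (MEF) and 11.5 (mESC) at Asxl2, and 8.17 and 10.8 at Kdm2a. Brms1 and Men1, which codes for menin, had 0 in both lists.

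The 18 transcription factor genes had medians of 46.6 MEF and 38.2 mESC members per Mb. MEF members were more at 8, mESC members at 6 and numbers equal at 4, against 172, 360 and 372 of the 904 genes. The 8 include neighbouring genes with overlapping territories and the same highest MEF fold, so they are not 8 independent cases. St18 had 22 MEF and 26 mESC members, Esr1, the estrogen receptor alpha gene, had 18 and 16, Zeb1, a driver of the mesenchymal state, had 11 and 9, and Tox had 12 and 5. At Zeb1 the highest fold was 9.26 in MEFs and 3.03 in mESCs. Tfap4 and Xbp1 had 0 in both lists.

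Of the mesenchymal and matrix list 9 of 10 genes start in the window, and Yap1 does not. Pdgfd, a platelet-derived growth factor gene, had 10 MEF and 11 mESC members, Svil, which codes for the actin-binding supervillin, had 7 and 9, Dab2, an endocytic adaptor gene, had 8 and 6, and Egflam, which codes for pikachurin, had 4 and 6. Igfbp1, Igfbp3 and Ltbp3 had 0 in both. The list's medians were 18.8 and 28.3 per Mb.

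In the Mmp and Casp clusters of chromosome 9, which code for matrix metalloproteinases and inflammatory caspases, 11 of 13 genes had a MEF member and 12 an mESC member, with medians of 61.1 and 69.6 per Mb. After Mmp1b came Mmp12 with 4 and 4, Mmp10 with 2 and 5, and Mmp7 with 4 and 3. Mmp3, stromelysin 1, had 0 in both lists although its neighbours had members. The 9 genes of the Akr1c cluster in the window, aldo-keto reductases on chromosome 13, had medians of 29.03 per Mb in both lists. Akr1c14 had 3 MEF and 2 mESC members, Akr1c6 had 2 and 3, Akr1c13 had 1 and 1 and Akr1c18 had 0 and 2. Akr1cl does not start in the window.

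Around the imprinted genes Sgce and Peg10 on chromosome 6, which are expressed from the paternal copy, the 9 listed genes had medians of 48.0 MEF and 43.1 mESC members per Mb. Ppp1r9a had 14 and 17, Calcr 4 and 7, Sgce 7 and 4, and Casd1 3 and 5. The mESC fold of 20.3 shown above is the highest at Calcr, where the highest MEF fold was 2.20. Among 11 hormone and nutrient genes 9 had more mESC than MEF members and 1 had fewer, against 360 and 172 of the 904 genes. The window holds more mESC than MEF members in all, 4441 against 3497. Ghr, the growth hormone receptor gene, had 9 and 17, Insr, the insulin receptor gene, 7 and 8, Lrp5, a Wnt co-receptor gene, 4 and 9, and Rictor, a subunit gene of mTORC2, 4 and 5. The nuclear noncoding RNA genes Neat1 and Malat1, side by side on chromosome 19, had 4 and 3 members and 1 and 1. Since the gene lists were drawn up with earlier results of these data known, none was tested, and these counts only describe where members lie.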

How the data were processed

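The 2 deposited interval lists, 1 for MEFs and 1 for mESCs, were the data. Per the file headers each gives chromosome, start, end and the authors' fold, a linear ratio. The submitters' processing notes name Bowtie2, SAMtools and hg38, while the series text names mm10, which was used. The pooling of replicates, the libraries divided and the caller are not stated there. Coordinates are printed as listed, and whether starts count from 0 or 1 is not stated. No read counts are listed, so depth is unknown, and 95% exact binomial intervals cover the number of intervals only.

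Members and gene lists were chosen with earlier results of these data known. Bins of 1 Mb with at least 0.5 Mb of sequenced bases were tested in SciPy 1.17.1. The negative binomial dispersion was estimated by moments over all autosomal bins. Tested on simulated data, it recovered nearly all of a few changed bins but hardly any when many were changed. Sequence came from GRCm38.p6 and gene models from GENCODE M21 basic. Midpoints were annotated in the order promoter, coding exon, UTR, other exon, intron, intergenic. Named genes were, of each list, the 4 with the most intervals and those with 0, the 5 protein-coding genes with the most members and the 5 with the most per Mb, the 3 largest empty territories, and the genes nearest to the 3 highest folds of each list. Alternatives were another count model, rate, fold limit, base count, window size, overlap rule and promoter width. A gene of the window is not reported here.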

Additional observations from a re-analysis of the deposited data

How the results depend on the processing

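Chromosome 14 decided both density ratios. Leaving out each autosome in turn gave ratios of window to rest from 0.999 to 1.07 in MEFs and from 0.987 to 1.05 in mESCs, the highest in each case without chromosome 14. The MEF and mESC ratios were 1.06 and 1.04 with a 2 Mb window, 1.12 and 1.10 per uniquely placed base, and 1.05 and 1.05 as medians over autosomes. Windows of 3 Mb and 10 Mb and a fold at or above the list median moved them by less than counting error. Poisson counts called 7 window bins lower and 3 higher in MEFs, and 7 lower and 9 higher in mESCs. Over all autosomes they called 127 lower and 95 higher MEF bins and 188 lower and 187 higher mESC bins. Per uniquely placed base 0 window bins were called lower in either list. That form left out or could not call the 4 nearly empty bins of chromosome 14. Over all autosomes it called 4 lower and 0 higher MEF bins and 4 lower and 3 higher mESC bins. Without chromosome 14, an alternative chosen after seeing the data, 0 MEF and 1 mESC window bins were lower. At a fold at or above the list median 4 mESC window bins were lower, all on chromosome 14, and the call on chromosome 7 was lost. Overlap with the other list was 38.5% of MEF and 30.3% of mESC members when at least 50% of both intervals had to overlap, and 38.9% and 31.1% at folds at or above the median. The share of soft-masked midpoints, 43.7% in MEFs and 46.3% in mESCs, was 38.8% and 44.7% in members of 1 list, 46.8% and 49.1% with a 2 Mb window and 40.9% and 43.7% with 10 Mb. Within 5 kb of a transcription start lay 19.2% of MEF and 18.5% of mESC members and 20.2% of the window's sequence. No paired analysis was possible because the lists hold no value per library.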

Other observations

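The X chromosome lies outside the rule. From 3 Mb to 8 Mb it held 39 MEF intervals, 8.79 per Mb against 10.8 per Mb in its remainder, and 61 mESC intervals, 13.7 per Mb against 13.8 per Mb. No test was run on these counts.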
